A study of Camelina sativa with 12 samples.

Results

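The comparison of salt-treated with control roots in camelina (Camelina sativa) line DH55 used 6 of the 12 libraries of the series, 3 from roots of plants given NaCl and 3 from roots of plants given tap water. Both groups were of the same line, a doubled haploid, and were harvested at 28 days of age. Plants of the treated group had received a NaCl solution of 192 mM (15 dS/m) daily for 21 days by the labels, although the study's methods also give a later start that would make the treatment shorter, and no other agent or allele separates the groups. All plants were grown in pots in a potting mix without soil. The remaining 6 libraries, from the shoots of plants of the same treatments, were used only to check the tissue. Polyadenylated RNA, as the labels name it, was sequenced, and the level of a gene is given in CPM, a read count scaled to the library, which the authors had normalized further and rounded to whole numbers. A value of 1 CPM is therefore the smallest step, and 0 does not mean that a gene had no reads. Of 49932 genes listed, 47848 reached 1 CPM in at least 3 of the 6 root libraries and were tested.

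A plant root in saline soil meets low water availability first, and Na+ and Cl- taken up with the water later. Roots are known to answer through the hormone abscisic acid (ABA), through transporters that return Na+ to the soil, hold it in vacuoles or withdraw it from the xylem, through sugars and proteins that protect dehydrated cells, and through altered growth under auxin, gibberellin, cytokinin, brassinosteroid and ethylene. Camelina is a hexaploid relative of Arabidopsis, so that most genes exist as 3 close copies (homeologues), each with an ID of its own. Reads of near-identical copies can be shared between IDs, and the values of single copies are uncertain to that extent.

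Values of a gene are given below for replicates 1, 2 and 3 in that order, first in control and then in salt-treated roots. The log2 change is the mean of log2(CPM + 0.5) in salt-treated roots minus that in control roots, with its standard error (SE). It understates the change of low genes, and it is not given for a gene listed at 0 in all 3 libraries of a group. The p-value comes from limma and was adjusted after Benjamini and Hochberg for the number of genes tested. A gene was called up- or down-regulated at an adjusted p of at most 0.05 with a log2 change above 1 in size, the limits of the study.

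The deposited values summed to 882288 to 899673 CPM in control and 891862 to 938888 CPM in salt-treated roots, and the sources used here do not give their depth in reads. Over the 21945 genes at a mean of 10 CPM or more, Pearson's r of the log2 values, taken across genes that are not independent of each other, was 0.959 to 0.983 between control libraries, 0.945 to 0.950 between salt-treated libraries and 0.576 to 0.746 between the groups. Salt root replicate 1 lay furthest from the controls. Its r with the controls was 0.576 to 0.620, against 0.675 to 0.746 for salt root replicates 2 and 3. With these 2 its r was 0.947 and 0.945, beside 0.950 between them. It was the highest salt-treated library in 2127 of the up-regulated genes, against 324 for replicate 2 and 738 for replicate 3. Of the 7 IDs taken as root markers, 2 were in the table, and both were higher in roots than in shoots. Their summed level was 13, 18 and 22 CPM in control and 36, 37 and 25 CPM in salt-treated roots. The 2 moved in opposite directions. Csa11g090640 fell from 11, 13 and 18 CPM to 4, 4 and 4 CPM. Csa13g047450 (HKT1, described below) rose from 2, 5 and 4 CPM to 32, 33 and 21 CPM, so the higher sum came from this gene alone.

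Salt treatment up-regulated 3835 genes and down-regulated 3595 genes, together 7430 genes or 15.5% of those tested, 8.01% up and 7.51% down. Without salt root replicate 1 the counts were 3088 and 3008. The median log2 change over all genes tested was 0.0042, with quartiles of -0.38 and 0.42, so that the distribution was centred near 0. The authors' normalization can set this centre, so a shift common to most genes would not be seen. Adjusted p alone was met by 22159 genes (46.3%), of which 14729 had a log2 change of 1 or less in size. All 3 salt-treated libraries lay above all controls in 12609 genes (26.4%) and below them in 11757 genes (24.6%), 50.9% in all, and the groups did not overlap in any of the 7430 called genes. Whole roots were sequenced, so that more or fewer cells of a type and more or less RNA per cell cannot be told apart in these changes. A log2 change above 2 was reached by 1090 up-regulated genes, and 812 down-regulated genes fell by more than 2.

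The genes that rose made up 4.25, 4.81 and 4.50% of the summed CPM of the control libraries and 16.6, 13.5 and 14.3% of that of the salt-treated libraries. The genes that fell made up 12.6 ± 0.6% in control and 3.93 ± 0.68% in salt-treated roots (SD, n = 3 each). These genes were picked on the same values, so the shares describe the size of the shift and carry no test. By contrast, the share of the sum held by the 10 most abundant genes was 2.44 ± 0.17% in control and 2.47 ± 0.24% in salt-treated roots (SD, n = 3 each, p = 0.9 by a two-sided exact permutation test, which cannot go below 0.1 with 3 against 3). The number of genes at 1 CPM or more was 46998, 47092 and 47227 in control and 47524, 47458 and 47572 in salt-treated roots (exact permutation p = 0.1, adjusted p = 0.186 over 13 library-wide values). The groups did not overlap in that number, but with these group sizes no such value could pass the limit.

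Values of 0 in every control library were found for 415 of the up-regulated genes, and 35 of them averaged 10 CPM or more in salt-treated roots. In the other direction, 178 down-regulated genes had 0 in every salt-treated library, 14 of them from a control mean of 10 CPM or more. A gene at 0 throughout a group passed the filter only with 1 CPM or more in all 3 libraries of the other group. The filter thus fixed its direction and a log2 change above 1 in size, and all 593 such genes tested were called. Their calls and adjusted p, here and below, describe levels only. None of the 10 largest rises or the 10 largest falls carried a name in the sources used here. The ID Csa15g002110 was listed at 0, 0 and 1 CPM in control roots and rose to 220, 119 and 82 CPM with salt (log2 change 7.49, SE 0.60, adjusted p = 0.00121). Csa11g104590, likewise unnamed, was at 2, 9 and 7 CPM in control and 1136, 573 and 602 CPM in salt-treated roots (7.02, SE 0.60, adjusted p = 0.00143). In both, salt root replicate 1 was the highest library and every salt-treated library was far above every control. The unnamed ID Csa19g003390 went the other way, from 26, 28 and 51 CPM to 0 in all 3 salt-treated libraries (adjusted p = 0.000254).

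The share of genes called varied with abundance. Among the 22826 genes with a mean of 2 to 10 CPM over the 6 libraries, 1632 were up-regulated and 1914 down-regulated (15.5%), and among the 18678 genes of 10 to 50 CPM, 1412 and 1198 were (14%). The share called was 19.3% of the 2976 genes at 50 to 200 CPM (324 up, 251 down), 28.2% of the 273 genes at 200 to 1000 CPM (44 up, 33 down) and 27.8% of the 18 genes at 1000 CPM or more (3 up, 2 down). Without salt root replicate 1 this last class held 2 up-regulated and 0 down-regulated genes. The share that met the adjusted p alone rose from 27.6% under 2 CPM to 64.1% at 50 to 200 CPM, and the SD of the log2 values between control replicates was 0.49 under 2 CPM and 0.20 at 50 to 200 CPM. Salt-treated replicates were further apart than controls in every class, with an SD of 0.53 and 0.27 in these same classes.

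The 3077 genes under 2 CPM had 420 up-regulated and 197 down-regulated members, 20.1% in all, although a smaller share of them met the adjusted p than in any other class. Rounding bears on these calls. In 315 called genes the value was identical in all libraries of each group, which leaves almost no spread for the test, and in 608 called genes (379 up, 229 down) the group means differed by 2 CPM or less. The potassium channel gene KAT1 (Csa11g065760) is of this kind: it was listed at 0 in all controls and at 1 CPM in all 3 salt-treated libraries, and its adjusted p of 2.21e-06 rests on a difference of the smallest step.

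**Figure D1:**
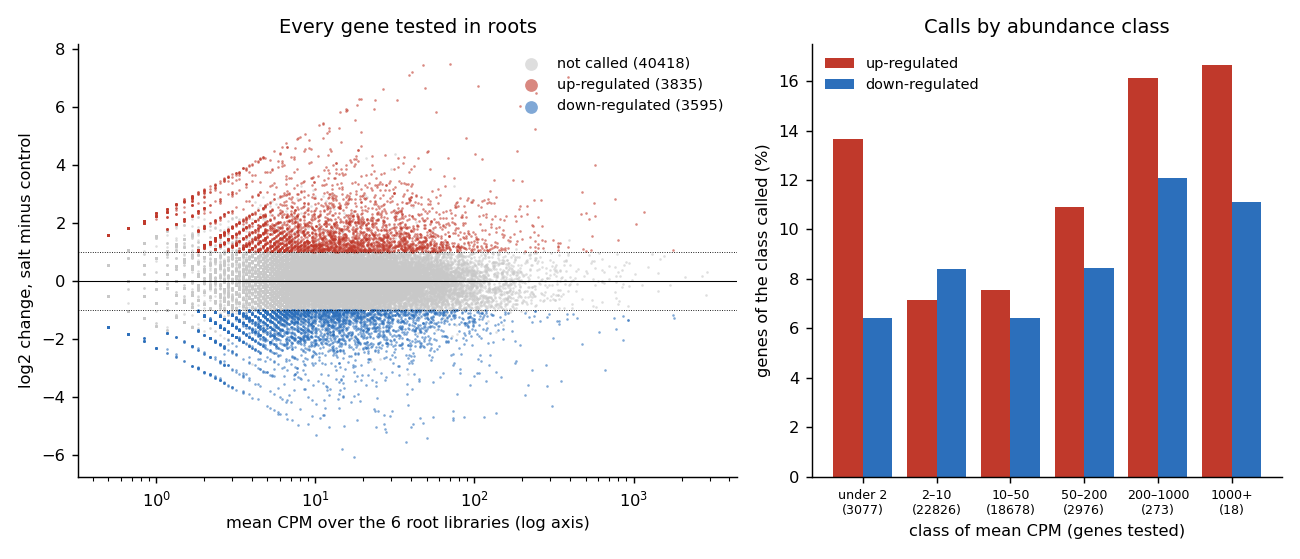
Left, the log2 change (salt minus control) of each of the 47848 genes tested in roots against its mean CPM over the 6 libraries on a log axis, with dotted lines at the limit of 1; right, the percent of genes called in each direction per class of mean CPM, with the number of genes tested in parentheses. Called genes lie on both sides in every class, and 28.2% of genes at 200 to 1000 CPM were called against 14% at 10 to 50 CPM.

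Some of the most abundant transcripts changed and others overlapped between the groups. The 10 genes with the highest means lay between 1460 and 2892 CPM. Of these, 3 were called and 5 showed no overlap between the groups, beside 15.5% and 50.9% of all genes tested. The count without overlap is thus near the share of all genes. A papain-family cysteine protease, a class that degrades proteins in vacuoles and dying cells, was the most abundant (Csa13g048470). It was at 2217, 3149 and 2430 CPM in control and 3596, 3249 and 2708 CPM in salt-treated roots, and the groups overlapped (log2 change 0.30, SE 0.20, adjusted p = 0.272). The unnamed Csa06g049360, by contrast, was down-regulated from 2339, 2050 and 3312 CPM to 795, 974 and 1361 CPM (-1.30, SE 0.28, adjusted p = 0.0183).

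Among genes of 200 to 1000 CPM, those with a name that changed most were a dormancy/auxin associated protein, a galactose mutarotase and DYL1 on the rising side. The dormancy/auxin associated gene Csa05g021450 was at 79, 110 and 79 CPM in control and 530, 309 and 405 CPM in salt-treated roots (log2 change 2.19, SE 0.25, adjusted p = 0.0029). On the falling side, a proline-rich extensin-like gene (Csa05g007300), of a family of structural cell wall proteins, was at 458, 421 and 694 CPM in control and 183, 250 and 275 CPM in salt-treated roots (-1.14, SE 0.26, adjusted p = 0.0203). In the class of 50 to 200 CPM, an E6-like gene (Csa17g006880) was down-regulated from 110, 147 and 71 CPM to 26, 63 and 31 CPM (-1.49, SE 0.44, adjusted p = 0.0439). Every salt-treated library of these genes was outside the range of the controls.

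The text of the study assigns a function to 247 gene IDs, of which 39 are not analysed here, 9 were under the filter and 199 were tested. Of these, 116 were up-regulated and 36 down-regulated in salt-treated roots, and 47 were not called (76.4% called, beside 15.5% of all genes tested), with a median log2 change of 1.67, or 1.29 without the genes at 0 throughout a group. The study picked most of these genes for their change in these same libraries or in the shoots, so the share and the direction of a list are no independent evidence. This holds for each count by topic below, to be read beside 8.01% up-regulated and 7.51% down-regulated of all genes tested. Without salt root replicate 1, 113 of the 199 were up-regulated and 33 down-regulated. In 16 of the 152 called genes the call ended when some single library was left out, and these libraries are named where such a gene is described. In the 9 lists of 3 or more genes with 0 down-regulated by limma, 3 of 98 genes lay lower at an unadjusted p under 0.05, and in the 3 lists with 0 up-regulated, 4 of 18 genes lay higher.

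**Figure D2:**
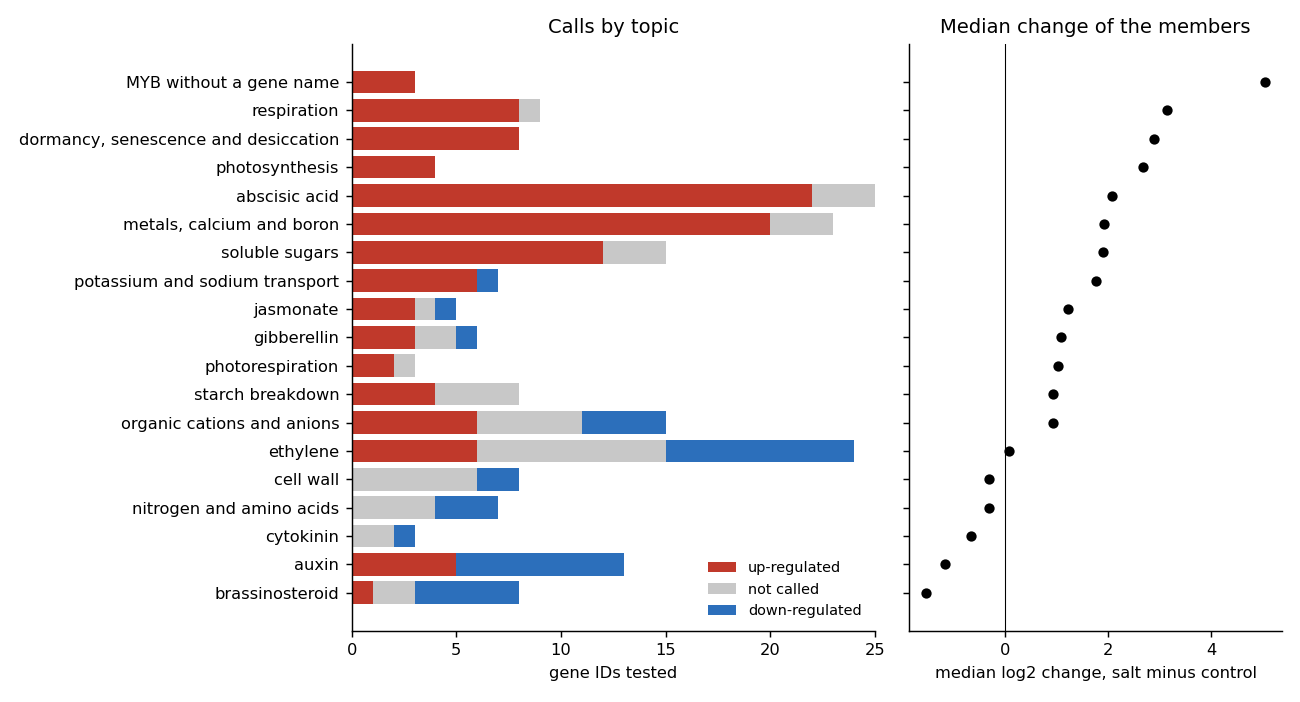
Left, the number of gene IDs tested under each topic of the study with 3 or more tested IDs, split into up-regulated, not called and down-regulated in salt-treated roots; right, the median log2 change (salt minus control) of the same IDs, fitted values of genes at 0 throughout a group included. Among the IDs tested, lists for ABA, metals, sugars and respiration hold up-regulated genes and no down-regulated ones (5 IDs for metals and 2 for respiration are not analysed here), while auxin, ethylene and organic ion lists hold both.

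ABA synthesis and signalling genes were up-regulated at nearly every step listed. Of 25 genes, 22 rose, 0 fell and 3 were not called, beside 8.01% up- and 7.51% down-regulated of all genes tested. The median log2 change was 2.08 (1.93 without the 5 genes at 0 in all controls). The rate-limiting enzyme of ABA synthesis is 9-cis-epoxycarotenoid dioxygenase (NCED), and all 6 NCED2 and NCED3 IDs were up-regulated from 0 to 2 CPM. Csa11g030120 (NCED2) was listed at 0 in all controls and at 13, 7 and 8 CPM with salt (adjusted p = 0.000465), and Csa15g018820 (NCED3) was at 0 in all controls and at 9, 6 and 4 CPM with salt (adjusted p = 0.00111). The 3 genes of ABA deficient 1, which in Arabidopsis is zeaxanthin epoxidase, an earlier step, had log2 changes of 1.34 to 1.83. Csa02g075650, the most abundant of them, was at 8, 10 and 9 CPM in control and 40, 29 and 30 CPM in salt-treated roots (1.81, SE 0.15, adjusted p = 0.00142).

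Downstream of the hormone, the 8 tested genes of ABF transcription factors, which bind ABA-responsive promoters, were all up-regulated. Csa11g008990 (ABF3) was at 10, 12 and 10 CPM in control and 76, 47 and 52 CPM in salt-treated roots (log2 change 2.37, SE 0.20, adjusted p = 0.00144), and Csa17g085550 (ABF1) was at 16, 16 and 17 CPM and 72, 59 and 52 CPM (1.86, SE 0.13, adjusted p = 0.00086). Protein phosphatases 2C hold ABA signalling in check when the hormone is absent, and the 3 ABA-induced genes of this class were among the largest rises with a name. Csa17g010800 was at 1, 1 and 1 CPM in control and 55, 28 and 25 CPM in salt-treated roots (4.51, SE 0.32, adjusted p = 0.000915). In all of these genes salt root replicate 1 was the highest library. HVA22D, a gene that ABA and stress induce in Arabidopsis, was up-regulated in both copies tested, with Csa11g019700 at 13, 14 and 14 CPM in control and 89, 50 and 63 CPM in salt-treated roots (2.22, SE 0.22, adjusted p = 0.00208). The 3 uncalled members were aldehyde oxidase 2 (Csa04g022460, 0.74) and both GEM-Related 5 genes (0.43 and 0.56).

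Genes named for dormancy, senescence or desiccation behaved alike, with 8 of 8 up-regulated and a median log2 change of 2.88 (3.67 without the gene at 0 in all controls). RD26, a NAC transcription factor that desiccation, salt and ABA induce in Arabidopsis, was near 0 in control roots in each of its 3 copies. Csa10g015440 was at 1, 2 and 2 CPM in control and 48, 20 and 19 CPM in salt-treated roots (3.67, SE 0.44, adjusted p = 0.00342). DYL1, a dormancy-associated gene, started from a much higher level. Csa03g031630 was at 70, 116 and 107 CPM in control and 490, 295 and 317 CPM in salt-treated roots (1.90, SE 0.29, adjusted p = 0.00655), and its other 2 copies changed by 1.96 and 2.10. A nodulin MtN3 family gene (Csa12g029240), of the family of SWEET sugar transporters, was at 1, 1 and 0 CPM in control and 27, 35 and 23 CPM in salt-treated roots (4.77, SE 0.50, adjusted p = 0.00241).

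The 4 largest rises among genes with a name were those of 3 genes of a MYB family of transcription factors and of 1 of the TSPO genes, which encode a stress-induced membrane protein in Arabidopsis. The 3 MYB genes summed to 0, 0 and 1 CPM in control and 120, 52 and 56 CPM in salt-treated roots. Csa12g063080, the highest of them, was listed at 0 in all controls and at 62, 24 and 24 CPM with salt (adjusted p = 0.000812). TSPO was also listed at 0 in all controls, and was at 50, 12 and 11 CPM (Csa04g067860, adjusted p = 0.00324) and 22, 9 and 5 CPM (Csa06g054300, adjusted p = 0.00342) with salt. Salt root replicate 1 was the highest library in each of these genes, but replicates 2 and 3 were also above every control.

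SOS1 and both HKT genes, whose products are known to move Na+, were up-regulated in roots. SOS1, the plasma membrane Na+/H+ exchanger that exports Na+, was at 8, 9 and 8 CPM in control and 28, 47 and 37 CPM in salt-treated roots (Csa04g006390, log2 change 2.07, SE 0.20, adjusted p = 0.00193). HKT1, which in Arabidopsis withdraws Na+ from the xylem, was at 2, 5 and 4 CPM and 32, 33 and 21 CPM (Csa13g047450, 2.85, SE 0.36, adjusted p = 0.00383). The second HKT gene, Csa08g040240, was more abundant, at 22, 35 and 27 CPM in control and 104, 115 and 72 CPM in salt-treated roots (1.77, SE 0.25, adjusted p = 0.00534). In these 3 genes salt root replicate 2 was the highest library, not replicate 1.

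The NHX family exchanges Na+ or K+ for H+ at internal membranes, and its 2 listed members moved in opposite directions. NHX2 (Csa15g006210) was up-regulated from 10, 10 and 10 CPM to 30, 26 and 23 CPM (log2 change 1.35, SE 0.10, adjusted p = 0.00111). NHX4 (Csa15g007930) was down-regulated from 5, 5 and 3 CPM to 1, 2 and 1 CPM (-1.41, SE 0.30, adjusted p = 0.0162), a difference of a few steps whose call ended without control replicate 1 or 2 (-1.30) and without salt replicate 1 or 3 (-1.29). For K+, the transporter KT1 (Csa07g013260) was at 1, 2 and 1 CPM in control and 7, 8 and 6 CPM in salt-treated roots (2.07, SE 0.24, adjusted p = 0.00328). Of the 7 genes for K+ and Na+, 6 were thus up-regulated and 1 down-regulated, with a median log2 change of 1.77 (1.92 without KAT1). The counts were 6 and 0 without salt root replicate 1.

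Metal, calcium and boron genes were up-regulated in 20 of 23 cases, with 0 down-regulated and a median log2 change of 1.92 (1.89 without the gene at 0 in all controls). Another 5 of the list's 28 IDs, 4 of them for iron and zinc transporters, are not analysed here, so the count of 0 covers only the 23 tested. Ferritin, the iron store of plastids, was the most abundant. Csa13g001310 (ferritin 1) was at 28, 35 and 30 CPM in control and 294, 163 and 170 CPM in salt-treated roots (2.69, SE 0.26, adjusted p = 0.00199), and the 3 ferritin 1 copies together averaged 129 CPM in control and 672 CPM with salt. Calcium genes rose as well: a calcium-transporting ATPase (Csa11g090670) was at 43, 41 and 39 CPM in control and 256, 184 and 147 CPM with salt (2.20, SE 0.21, adjusted p = 0.00196). Of the 6 Ca2+:cation antiporters tested, 5 were up-regulated by 1.19 to 1.72. The lowest of these, Csa09g058900, at 2, 3 and 4 CPM against 8, 8 and 6 CPM, lost the call without control replicate 1 (0.97) or 2 (1.21) and without salt replicate 1 or 2 (1.13).

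Proteins annotated for heavy metal transport or detoxification were up-regulated in 5 of 5 genes, and both genes annotated only as metal detoxification protein were not called. Csa10g002430 was at 3, 4 and 3 CPM in control and 26, 30 and 28 CPM in salt-treated roots (log2 change 2.90, SE 0.13, adjusted p = 0.000236), a change with little spread between replicates. BOR5, of a family of boron exporters, was up-regulated in both copies. Csa16g038700 was at 4, 6 and 6 CPM in control and 24, 34 and 49 CPM with salt (2.59, SE 0.31, adjusted p = 0.00331), here with salt root replicate 3 the highest. HMA2, a pump for zinc and cadmium in Arabidopsis, was at 2, 2 and 1 CPM and 6, 5 and 8 CPM (Csa11g013320, 1.67, SE 0.28, adjusted p = 0.0082).

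**Figure D3:**
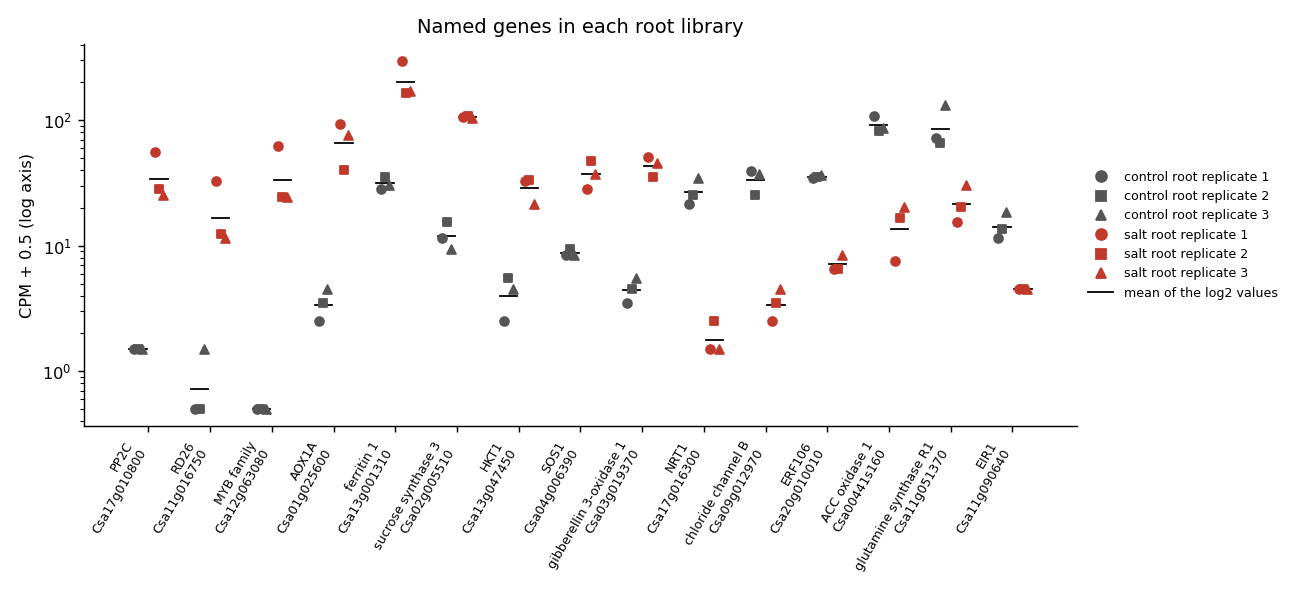
Level of 15 named genes in each of the 6 root libraries as CPM + 0.5 on a log axis, control in grey and salt-treated in red, with circles, squares and triangles for replicates 1, 2 and 3 and a bar at the mean of the log2 values. The groups do not overlap in any of the 15 genes, and the circle of salt root replicate 1 is highest in several risers such as ferritin 1 (294 CPM) but not in HKT1 or SOS1.

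Anion transporters split into rising and falling groups of 3 homeologues. The 3 genes of SULTR3;4, of a family of sulphate transporters, were all up-regulated by 2.28 to 2.32, from a summed mean of 23.7 to 126 CPM. Csa15g020720 was at 13, 12 and 9 CPM in control and 80, 49 and 46 CPM in salt-treated roots (2.28, SE 0.26, adjusted p = 0.00309). Chloride channel B, a member of the CLC family of anion channels and exchangers, was down-regulated in all 3 copies, from a summed mean of 100.7 to 12.7 CPM. Csa09g012970 was at 39, 25 and 37 CPM in control and 2, 3 and 4 CPM with salt (-3.30, SE 0.29, adjusted p = 0.00146). The nitrate transporter NRT1 showed the largest fall of a named gene, from 21, 25 and 34 CPM to 1, 2 and 1 CPM (Csa17g016300, -3.91, SE 0.29, adjusted p = 0.00104). Organic cation transporters were up-regulated in 3 of 3 genes, and none of the 5 phosphate transporters was called (log2 changes of -0.49 to 0.94). Over the 15 genes, 6 rose and 4 fell, and the median log2 change was 0.92 (0.62 without the gene at 0 in all controls).

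Of 7 genes for nitrogen and amino acids, 0 were up-regulated and 3 down-regulated, with a median log2 change of -0.33. Asparagine synthase 1, which makes the nitrogen carrier asparagine, lay above all controls but was not called, at 5, 5 and 5 CPM in control and 11, 6 and 12 CPM in salt-treated roots (Csa06g020990, 0.83, SE 0.27, adjusted p = 0.0570). Nitrate reductase 2, which reduces nitrate to nitrite, was at 26, 16 and 32 CPM in control and 1, 3 and 7 CPM in salt-treated roots (Csa03g040490, -2.83, SE 0.65, adjusted p = 0.0215). Its libraries spread widely within each group, and the call ended without control replicate 1 (-2.77), 2 (-3.11) or 3 (-2.62) and without salt replicate 2 (-2.85). Glutamine synthase R1, which binds ammonium into glutamine, was at 72, 65 and 132 CPM and 15, 20 and 30 CPM (Csa11g051370, -2.01, SE 0.38, adjusted p = 0.0121), whereas glutamine synthetase 1 (Csa20g024450), at 5, 7 and 6 CPM and 4, 5 and 5 CPM, overlapped between the groups (-0.33, SE 0.15, adjusted p = 0.136). Valine tolerance 1, a regulatory subunit of the first enzyme of branched-chain amino acid synthesis, was down-regulated from 10, 9 and 11 CPM to 3, 4 and 5 CPM (Csa20g023980, -1.24, SE 0.19, adjusted p = 0.00641).

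Genes for soluble sugars were up-regulated in 12 of 15 cases and down-regulated in 0, beside 8.01% and 7.51% of all genes tested. Their median log2 change was 1.90. Sucrose synthase cleaves sucrose into fructose and UDP-glucose, and the 3 sucrose synthase 3 genes rose from a summed mean of 45.0 to 247 CPM. Csa02g005510 was at 11, 15 and 9 CPM in control and 106, 107 and 104 CPM in salt-treated roots (3.15, SE 0.19, adjusted p = 0.000567). Trehalose-phosphatase/synthase 9 belongs to the gene family named for the synthesis of trehalose, and its copy Csa17g030990 was at 28, 35 and 51 CPM and 196, 152 and 181 CPM (2.24, SE 0.24, adjusted p = 0.00271). A galactose mutarotase, Csa19g003320, was at 85, 140 and 111 CPM and 344, 569 and 356 CPM (1.90, SE 0.28, adjusted p = 0.00605).

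Galactinol synthase feeds the synthesis of raffinose, a protective sugar, and its type 4 genes were both up-regulated, with Csa16g052330 at 21, 30 and 23 CPM in control and 86, 79 and 77 CPM in salt-treated roots (log2 change 1.70, SE 0.14, adjusted p = 0.00138). Galactinol synthase 2 (Csa05g063400), at 1, 1 and 1 CPM and 6, 2 and 2 CPM, was not called (1.20, SE 0.41, adjusted p = 0.0679). Raffinose synthase, the next step, was split. Csa10g047220 was up-regulated from 13, 11 and 12 CPM to 36, 22 and 22 CPM (1.08, SE 0.22, adjusted p = 0.0145), a call that ended without control replicate 2 (1.03) or 3 (1.09) and without salt replicate 1 (0.85). Csa11g057610 was at 23, 22 and 19 CPM in control and 18, 11 and 12 CPM in salt-treated roots (-0.65, SE 0.20, adjusted p = 0.0526, not called), and the 3 copies together averaged 48.0 CPM in control and 50.3 CPM with salt.

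Starch-degrading amylases were up-regulated in 4 of 8 genes and down-regulated in 0, beside 8.01% and 7.51% of all genes tested. Their median log2 change was 0.94 (0.72 without the gene at 0 in all controls). The rising genes were 2 beta-amylases and 2 alpha-amylases. Csa15g048800 (beta-amylase) was at 17, 21 and 21 CPM in control and 45, 50 and 42 CPM in salt-treated roots (1.20, SE 0.11, adjusted p = 0.00185). The alpha-amylase Csa12g029250 was at 2, 4 and 3 CPM and 14, 14 and 14 CPM (2.09, SE 0.22, adjusted p = 0.00253). The other 3 alpha-amylases were at 5 CPM or less in every root library and were not called (-1.27 to -0.66).

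Respiratory genes were up-regulated in 8 of 9 cases and down-regulated in 0, beside 8.01% and 7.51% of all genes tested. Their median log2 change was 3.15 (3.01 without the 3 genes at 0 in all controls). Alternative oxidase passes electrons from ubiquinol directly to oxygen and bypasses the later steps of the respiratory chain in mitochondria. Its 3 genes of type 1A rose from a summed mean of 6.33 to 127 CPM. Csa01g025600 was at 2, 3 and 4 CPM in control and 92, 40 and 76 CPM in salt-treated roots (4.28, SE 0.39, adjusted p = 0.0017), with salt root replicate 2 the lowest of its group in all 3 copies. The 3 genes of type 1D were listed at 0 in every control and summed to a mean of 13.0 CPM with salt, with Csa14g042300 at 10, 4 and 6 CPM (adjusted p = 0.00137).

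Citrate synthase 3, which in Arabidopsis acts in peroxisomes, was up-regulated in 2 of 3 genes. Csa06g048940 was at 11, 12 and 10 CPM in control and 35, 24 and 27 CPM in salt-treated roots (log2 change 1.33, SE 0.16, adjusted p = 0.00335). The third, Csa04g059380, was at 0, 0 and 3 CPM in control and 21, 1 and 10 CPM with salt, and was not called, and its libraries overlapped (2.87, SE 1.33, adjusted p = 0.136). Glycolate oxidase, a peroxisomal enzyme of photorespiration, was up-regulated in 2 of 3 genes with small and even changes. Csa11g030110 was at 28, 29 and 32 CPM and 67, 68 and 80 CPM (1.26, SE 0.09, adjusted p = 0.00107). Csa06g046560 changed by 1.03, just past the limit, and by 0.99 without salt replicate 3, and Csa10g026850 by 0.95, just short of it.

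Photosynthetic genes are known for high levels in green tissue and low levels in roots, and the 4 listed were all up-regulated in salt-treated roots. Csa05g079910, a gene of Rubisco small chain 1A, part of the enzyme that fixes CO2, was at 7, 16 and 9 CPM in control and 113, 41 and 68 CPM in salt-treated roots (log2 change 2.70, SE 0.48, adjusted p = 0.0102). Csa16g026850 was at 4, 10 and 4 CPM and 67, 24 and 31 CPM (2.65, SE 0.54, adjusted p = 0.0148), and its call ended without control replicate 1 or 3 (2.44 each). The same libraries decided the call of Csa07g032360 (2.41, and 2.20 without either). The chlorophyll-binding protein of photosystem II (Csa06g008820) was listed at 0 in all controls and at 5, 3 and 4 CPM with salt (adjusted p = 0.000452), beside 52 to 68 CPM in control shoots.

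A list of 20 green-tissue markers was used to see how much shoot-type transcript the root libraries held. Their summed level was 15, 33 and 16 CPM in control and 206, 79 and 117 CPM in salt-treated roots (exact permutation p = 0.1, the smallest possible, adjusted p = 0.186), beside 26348 to 28789 CPM in control shoots and 11312 to 13845 CPM in salt-treated shoots. Of the 20 IDs, 11 were at 0 in all 6 root libraries, including chlorophyll A/B binding protein 1 (Csa14g037480), a light-harvesting gene of photosystem II (Csa06g036870) and photosystem I subunit D-1 (Csa08g050560). Of the 8 tested, 5 were up-regulated, beside 8.01% of all genes tested. These were the 3 genes of Rubisco small chain 1A, which the study had named for a rise in roots, Csa06g008820 and Csa12g084200. Both Csa06g008820 and Csa12g084200 were at 0 in all controls, so they passed the filter only through the salt-treated libraries. Csa12g084200 was at 1 CPM in each of these, the smallest step. Nearly all of the rise in the summed level came from the 3 genes of Rubisco small chain 1A. They summed to 12, 29 and 14 CPM in control and 196, 72 and 108 CPM with salt, while the other 17 summed to 3, 4 and 2 CPM and 10, 7 and 9 CPM. In salt-treated shoots those 17 summed to 1744 to 2445 CPM beside 9568 to 12079 CPM for the 3 genes.

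The 3 genes of Rubisco small chain 1A also stood in another order in roots than in shoots. In the root libraries Csa05g079910 held 55.2 to 64.3% of their summed CPM and Csa16g026850 held 28.6 to 34.5%, in control and salt-treated roots alike. In the shoot libraries Csa16g026850 held 62.3 to 65.9% and Csa05g079910 28.7 to 31.8%. The ranges of roots and shoots did not overlap for either gene. The part of shoot tissue in the rise of these genes in roots was not tested beyond these values.

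**Figure D4:**
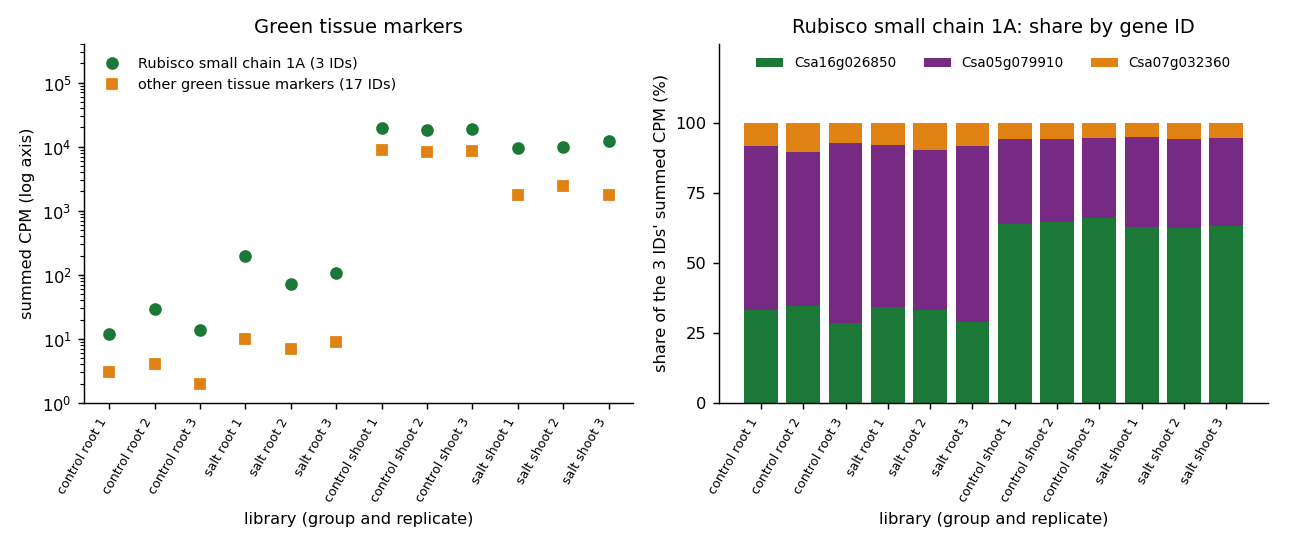
Left, the summed CPM of Rubisco small chain 1A (3 IDs) and of 17 other green-tissue markers in each of the 12 libraries on a log axis; right, the percent of the summed CPM of Rubisco small chain 1A held by each ID in each library. Both sums were higher in each salt-treated root library than in each control root library, both were far below shoots, and Csa05g079910 holds 55.2% or more in every root library but at most 31.8% in every shoot library.

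Auxin genes moved in both directions, with 5 of 13 up-regulated, 8 down-regulated and a median log2 change of -1.18 (-1.15 without the gene at 0 with salt). The rising genes were the 3 listed for IAA synthesis and the 2 dormancy/auxin associated genes. Csa03g046940, of IAA synthesis, was at 3, 4 and 3 CPM in control and 31, 24 and 25 CPM in salt-treated roots (2.83, SE 0.15, adjusted p = 0.000439). Ethylene Insensitive Root 1, an auxin carrier that in Arabidopsis is needed for root gravitropism, was down-regulated, at 11, 13 and 18 CPM in control and 4, 4 and 4 CPM in salt-treated roots (Csa11g090640, -1.66, SE 0.18, adjusted p = 0.00275). Repressors of auxin responses fell too, with both IAA17 genes down-regulated, Csa14g005400 from 6, 7 and 7 CPM to 1, 1 and 1 CPM (-2.25, SE 0.07, adjusted p = 9.82e-05). IAA14 (Csa12g057270) changed by -1.18, but by -0.98 without control replicate 3.

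Of 6 gibberellin genes tested, 3 were up-regulated, 1 was down-regulated and 2 were not called. Another 5 of the list's 11 IDs are not analysed here, among them the 3 of gibberellin 2-oxidase 6. Only 1 enzyme of synthesis was thus tested. Gibberellin 3-oxidase 1, which makes the bioactive forms, was up-regulated in all 3 copies by 2.99 to 3.29. Csa03g019370 was at 3, 4 and 5 CPM in control and 50, 35 and 45 CPM in salt-treated roots (log2 change 3.29, SE 0.22, adjusted p = 0.000797). The 3 genes of RGA-like 1, a DELLA repressor of gibberellin responses, lay below all controls, but only Csa05g075230 was called, from 7, 6 and 6 CPM to 3, 3 and 2 CPM (-1.12, SE 0.16, adjusted p = 0.00561), and without salt replicate 3 its change was -0.96. Its other copies changed by -0.84 and -0.85. Cytokinin oxidase 6, which degrades cytokinins, was down-regulated in 1 of 2 genes (Csa07g001160, 21, 19 and 18 CPM against 10, 10 and 5 CPM, -1.23, SE 0.29, adjusted p = 0.0221), a call that ended without any 1 control library (-1.27 to -1.17) and without salt replicate 3 (-0.91).

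Sterol and brassinosteroid genes were down-regulated in 5 of 8 cases and up-regulated in 1, with a median log2 change of -1.55 (-0.74 without the 2 genes at 0 with salt). Sterol methyltransferase 3 acts in the synthesis of plant sterols, and all 3 of its genes fell, from a summed mean of 62.3 to 15.7 CPM. Csa07g047620 was at 19, 22 and 26 CPM in control and 2, 3 and 3 CPM in salt-treated roots (-2.86, SE 0.19, adjusted p = 0.000779). BRS1, a carboxypeptidase of brassinosteroid signalling, was at 2 to 4 CPM in control and listed at 0 with salt in both copies. The exception was sulpho-transferase 12, an enzyme that in Arabidopsis can sulphonate brassinosteroids, which was up-regulated from 3, 2 and 6 CPM to 70, 32 and 86 CPM (Csa04g009350, 3.92, SE 0.53, adjusted p = 0.0047).

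Ethylene genes were called in both directions. Of 24 genes, 6 were up-regulated, 9 down-regulated and 9 not called, beside 8.01% up- and 7.51% down-regulated of all genes tested. The median log2 change was 0.07 (-0.01 without the gene at 0 in all controls), and without salt root replicate 1 the counts were 4 and 8. At the synthesis step, ACC oxidase 1, which forms ethylene from its precursor ACC, was at 108, 81 and 86 CPM in control and 7, 16 and 20 CPM in salt-treated roots (Csa00441s160, -2.75, SE 0.41, adjusted p = 0.00627), the largest fall of a named gene above 50 CPM. ACC oxidase 2 lay below all controls but just short of the limit (Csa09g097000, -0.96, SE 0.20, adjusted p = 0.0167). ACC synthases, which make ACC, were at 7 CPM or less in all root libraries, and 3 of the 5 tested were up-regulated. Of these, Csa17g001950 lost its call without control replicate 2 or 3, both at 0 CPM (1.81 each), or any salt-treated library (1.79 to 2.22), and Csa11g018190 without salt replicate 3 (1.46). The 2 genes of ethylene-forming enzyme rose, Csa17g008270 from 6, 7 and 5 CPM to 22, 26 and 18 CPM (1.79, SE 0.18, adjusted p = 0.00218), and Csa14g006260 by 1.73, a call that ended without control replicate 1 or 3 (1.61 each) or salt replicate 1 (1.79).

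Among ethylene response factors, the copies of ERF106 and of ESE3 fell together. All 3 ERF106 genes and all 3 ESE3 genes were down-regulated. ERF106 was at 34, 35 and 36 CPM in control and 6, 6 and 8 CPM in salt-treated roots in Csa20g010010 (log2 change -2.32, SE 0.12, adjusted p = 0.000404). ESE3, whose Arabidopsis counterpart was named for induction by ethylene and salt, fell here, with Csa13g031030 at 13, 12 and 13 CPM and 4, 4 and 4 CPM (-1.55, SE 0.05, adjusted p = 0.000101). ERF11 genes differed as much between control replicates as between groups, at 5, 9 and 16 CPM and 13, 10 and 13 CPM in Csa03g031680 (0.38, SE 0.42, adjusted p = 0.489). In ERF105 control replicate 3 was again the highest library. Csa18g022000 was at 27, 50 and 77 CPM and 12, 10 and 12 CPM (-2.01, SE 0.40, adjusted p = 0.0135), and lost the call without control replicate 2 (-1.97) or salt replicate 2 (-1.93), and Csa11g082690 (-1.92) lost it without control replicate 2 or 3 or any salt-treated library (-2.06 to -1.54).

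Jasmonate genes were low except for allene oxide cyclase 2, an enzyme in the middle of the pathway, which was down-regulated from 26, 25 and 34 CPM to 5, 6 and 11 CPM (Csa06g005340, log2 change -1.94, SE 0.31, adjusted p = 0.00782). Lipoxygenases, which open the pathway, were at 3 CPM or less in all root libraries, and 3 of 4 were up-regulated from 0 or 1 CPM. Over the 5 genes the median was 1.22 (1.02 without the 2 genes at 0 in all controls).

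Cell wall genes were down-regulated in 2 of 8 cases and up-regulated in 0, beside 7.51% and 8.01% of all genes tested. Their median log2 change was -0.32, and 2 lay above all controls and 2 below, beside 26.4% and 24.6% of all genes. The 2 above were pectin lyases that were not called. Csa15g009700 was at 9, 9 and 8 CPM in control and 11, 19 and 14 CPM in salt-treated roots (0.69, SE 0.21, adjusted p = 0.0440). Csa01g009040 changed by 0.64 (SE 0.21, adjusted p = 0.0577). A pectin methyl-esterase inhibitor was at 41, 30 and 34 CPM in control and 10, 11 and 16 CPM in salt-treated roots (Csa06g054090, -1.48, SE 0.21, adjusted p = 0.0056), and arabinogalactan protein 2, a glycoprotein of the cell surface, was at 26, 23 and 36 CPM and 12, 8 and 12 CPM (Csa07g052560, -1.37, SE 0.24, adjusted p = 0.00963). All 3 genes of expansin A10, which loosens growing walls, were at 5 CPM or less in all root libraries and overlapped between the groups. In lipid and secondary metabolism, 3 genes were tested. A lipase class 3 gene (Csa08g018530) was called from 3, 3 and 9 CPM to 0, 0 and 1 CPM (adjusted p = 0.0217), a call lost without any 1 control library (-3.00 to -2.28) or salt replicate 1 or 2 (-2.50). Csa04g042350, of the anthocyanin and carotenoid pathway, rose from 0 in all controls to 3, 1 and 1 CPM (adjusted p = 0.0109), and MYB29 (Csa13g009720, 0.61) was not called.

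The supplementary sheets of the study add annotations for genes that it had selected by their change in shoots. Of 1352 IDs in the sheets used here, 831 were tested in roots. Among the 412 selected for a rise in shoots, 99 were up-regulated in roots and 2 down-regulated (median log2 change 0.65), and among the 419 selected for a fall in shoots, 6 were up-regulated and 104 down-regulated (median -0.73), beside 8.01% and 7.51% of all genes tested. The sheets were available only as shortened copies, so the counts describe a part of each selection. Separate sheets for genes that moved in both tissues were not used here, so these counts leave out many of the genes that both tissues share. Without salt root replicate 1 the counts were 75 and 2, and 5 and 74.

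Within these sheets, genes for DNA synthesis and chromatin were lower in roots where they changed, with 7 of 15 down-regulated, 0 up-regulated and a median of -1.05. All of them came from the sheet of genes that fell in shoots. Of that sheet 104 of 419 genes were down-regulated in roots, beside 7.51% of all genes tested. A histone H4 gene was at 30, 32 and 26 CPM in control and 13, 13 and 14 CPM in salt-treated roots (Csa05g035660, -1.10, SE 0.09, adjusted p = 0.00121). A subunit of the MCM helicase, which opens DNA for replication, was at 13, 13 and 12 CPM and 4, 6 and 6 CPM (Csa11g065720, -1.19, SE 0.17, adjusted p = 0.00509), and the large subunit of DNA primase at 4, 4 and 3 CPM and 1, 1 and 1 CPM (Csa05g081230, -1.46, SE 0.11, adjusted p = 0.00111). Among the 22 ribosomal protein genes, by contrast, 1 was down-regulated and the median was -0.52, although 10 lay below all controls. The shares of all genes tested were 7.51% down-regulated and 24.6% below all controls. These 22 genes also came from the sheet of genes that fell in shoots, whose median in roots was -0.73.

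Stress genes of the sheets were raised, most of them having been selected for a rise in shoots. Of 41 genes for abiotic stress, 17 were up-regulated and 0 down-regulated in roots (median 0.89). Of the 23 genes among them for heat, 9 and 0 were (median 0.88). The shares of all genes tested were 8.01% and 7.51%. Without salt root replicate 1 the counts were 13 and 1, and 7 and 0. A heat shock protein 70, a chaperone that binds unfolded proteins, was at 38, 33 and 36 CPM in control and 89, 91 and 80 CPM in salt-treated roots (Csa19g016790, 1.27, SE 0.08, adjusted p = 0.000646), and heat shock protein 90-1 at 23, 17 and 19 CPM and 46, 45 and 44 CPM (Csa18g023590, 1.18, SE 0.12, adjusted p = 0.00203). A dehydrin, one of the hydrophilic proteins that protect drying cells, was among the abundant genes at 300, 406 and 283 CPM and 766, 534 and 709 CPM (Csa17g026310, 1.02, SE 0.21, adjusted p = 0.0147). Every salt-treated library of these 3 genes was above every control.

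Of the 58 regulators of transcription in the sheets, 7 were up-regulated and 10 down-regulated, beside 8.01% and 7.51% of all genes tested, with a median of -0.25. From the sheet of genes that fell in shoots came 34 of them, and 24 from that of genes that rose. These sheets had medians of -0.73 and 0.65 in roots, so the median of a group is not separate from that selection. On the rising side, bZIP transcription factor 60, which in Arabidopsis responds to unfolded proteins in the endoplasmic reticulum, was at 18, 15 and 18 CPM in control and 45, 30 and 47 CPM in salt-treated roots (Csa17g069280, log2 change 1.21, SE 0.20, adjusted p = 0.00812). On the falling side, methyltransferase 1, the enzyme that maintains DNA methylation at CG sites, was at 9, 8 and 8 CPM and 3, 4 and 4 CPM (Csa11g078440, -1.09, SE 0.12, adjusted p = 0.00299). The counts were 2 and 8 without salt root replicate 1. Among enzymes that modify small molecules, and beside the same shares of all genes, 5 of 40 cytochrome P450 genes were up-regulated and 2 down-regulated (median 0.43, or 3 and 1 without salt root replicate 1), as were 4 and 1 of 18 UDP-glycosyltransferases (median 0.43, or 1 and 1). Of the P450 genes 34 came from the sheet of rises in shoots and 6 from that of falls, and of the UDP-glycosyltransferases 17 and 1.

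Copies of a gene with the same name could be compared where the study names 3 IDs, which holds for 38 names, 32 of them with all 3 tested. All 3 copies were up-regulated under 19 names and down-regulated under 4, some copies were called under 7, none under 2, and under no name did called copies move in opposite directions. Among the 25 names with no copy at 0 throughout a group, the range of the log2 change between copies had a median of 0.57 and ran from 0.04 in SULTR3;4 to 1.74 in raffinose synthase. The same copy was the most abundant in control and salt-treated roots under 21 names, and another copy was counted under 11. Ties in control were given to the earlier ID. Among the 11, alternative oxidase 1D was at 0 in control in all 3 copies, so its control lead was a tie. Csa14g008830 and Csa17g010800 of the ABA-induced protein phosphatase 2C were equal at 1, 1 and 1 CPM in control. The MYB family and ACC synthase 2 had control sums of only 0.33 and 1.0 CPM, so their leads rest on rounding steps.

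The share of the summed level that a copy holds therefore moved in some families. In sucrose synthase 3, Csa08g052190 held 60.1 ± 0.9% in control and 40.3 ± 1.0% in salt-treated roots, and Csa02g005510 25.7 ± 3.3% and 42.9 ± 1.5% (SD, n = 3 each). The lead of Csa08g052190 in control roots was gone with salt, while all 3 copies were up-regulated. In raffinose synthase, Csa10g047220 went from 25.1 ± 2.2% to 52.7 ± 4.3%, while the sum was 48.0 and 50.3 CPM. In sterol methyltransferase 3, which fell, Csa07g047620 went from 35.8 ± 0.2% to 17.0 ± 2.9%. In SULTR3;4, on the other hand, Csa15g020720 held 47.6 ± 4.1% and 46.3 ± 1.2%, and the shares of all 3 copies overlapped between the groups. Near-identical copies may exchange reads, and shares of low sums move in steps of the rounding, so the shares are given as a description.

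**Figure D5:**
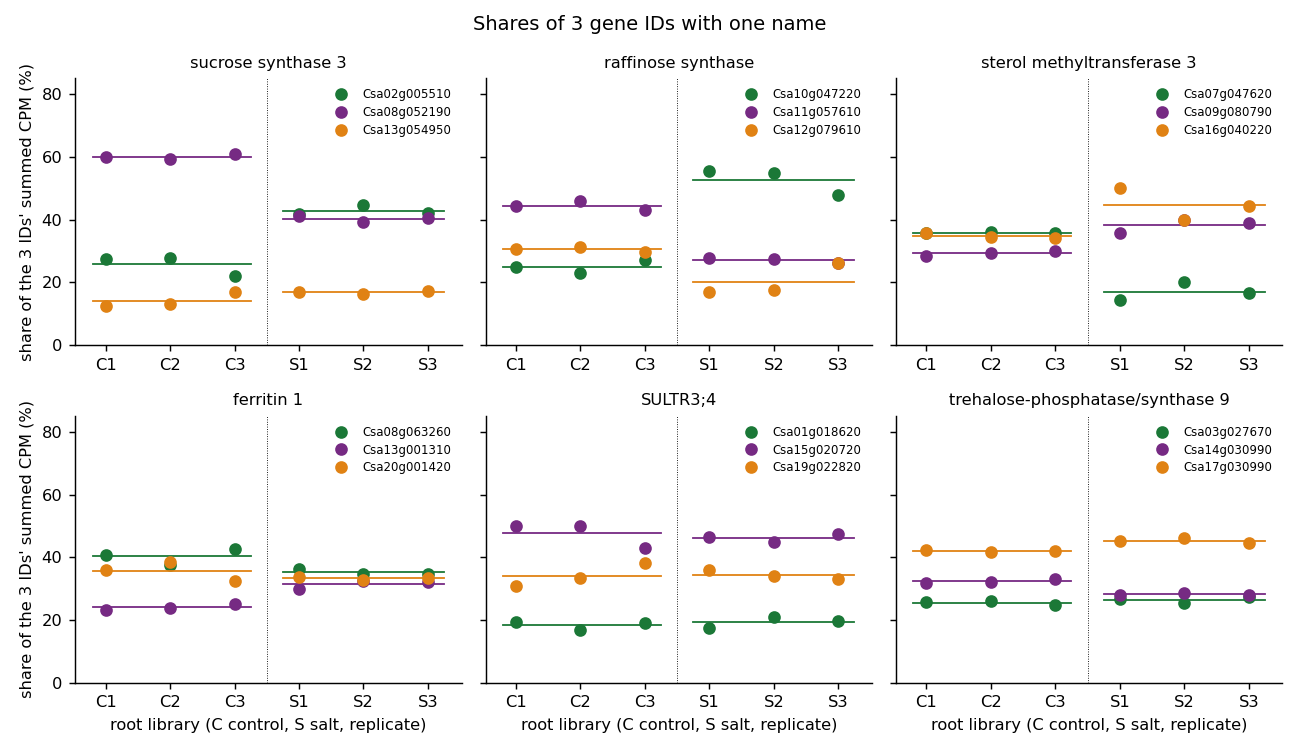
Percent of the summed CPM of 3 gene IDs with one name held by each ID, in control (C) and salt-treated (S) root replicates 1 to 3, for 6 names; lines are group means. In sucrose synthase 3 the share of Csa08g052190 is 60.1% in control and 40.3% with salt, whereas the shares in SULTR3;4 overlap between the groups.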

How the data were processed

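Root RNA, polyadenylated per the labels, was sequenced from stranded libraries with 3 biological replicates per group, and the study's methods name kits for both mRNA and total RNA. No source used here states whether a replicate was 1 plant or a pool, so p-values measure the spread between these libraries. Trimming with Trimmomatic and mapping with STAR to the genome of the species and its NCBI transcripts were done by the authors, who divided counts by library size and normalized the resulting CPM with DESeq. Their tools also include edgeR (versions: not given in the sources used here). Each deposited value is thus a score, a normalized CPM rounded to whole numbers. In control roots the variance between replicates was 0.189 times the mean at 2 to 10 CPM, 0.377 times at 10 to 50 CPM and 1.55 times at 50 to 200 CPM. In salt-treated roots it was 0.278, 0.712 and 3.14 times. These ratios depend on the depth, so they do not place the spread against that of counts. Since the values are not counts, no count model was used. The depth is unknown, and no counting interval or floor is given.

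Columns were matched to samples by the labels, and 0 columns belonged to no sample. Genes at 1 CPM or more in 3 or more of the 6 root libraries were fitted on log2(CPM + 0.5) with limma 3.58.1 in R 4.3.3 (trend in the prior variance, 4 residual degrees of freedom and no replicate block), with Benjamini-Hochberg adjustment for the number of genes tested. The fit was tested on simulated data. Whole-library values were compared by exact permutation tests over libraries in SciPy 1.17.1. Lists were described by counts and medians.

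The genes named are the IDs in the text of the study, the 10 largest rises and falls, 3 each way per abundance class, the 10 most abundant genes, and names with 3 IDs. Of those without a name at most 2 per direction were printed. Genes from the sheets other than these were chosen after their values were seen. One gene is counted with its list but not reported here. The members and lists were chosen with earlier results of these data known. None of the IDs of the table matched the reference table (0 matched), so sequences, positions and a planned search of promoters for motifs are not given here. Alternatives were another pseudocount, filter, scaling, prior, weighting, fold limit, set of libraries and definition of classes, a replicate block, and leaving out each library.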

Additional observations from a re-analysis of the deposited data

How the results depend on the processing

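Of the 152 named genes called, 0 reversed in the alternatives that tested them, and 16 lost the call when some library was left out. Of the 124 tested under all 18 alternatives run for single genes, 111 kept the call in each other than treat. The other 28 were not tested at the filter of 5 CPM, and 22 of them kept it in each of the rest other than treat. Leaving out each library gave 3088 to 3732 up-regulated and 2870 to 3698 down-regulated genes, 3016 and 2888 of them shared with the reported calls without salt root replicate 1, and 2 to 5 called genes at 1000 CPM and above. Limma's treat, which tests whether a change exceeds 1 on the log2 scale, is stricter by construction and called 904 genes up, 732 down and 67 named genes, with 255 under 2 CPM, 617 at 2 to 10, 618 at 10 to 50, 123 at 50 to 200, 22 at 200 to 1000 and 1 above. A filter at 5 CPM left 2357 called genes in the class of 2 to 10 CPM against 3546, since fewer genes were tested. Classes set by the control mean held 1378 called genes under 2 CPM and 10 at 1000 and above, since genes that rose or fell move between classes. The median change of all genes stayed between -0.03 and 0.03 under every scaling and setting. The authors had normalized the values between libraries, so this median cannot show whether most genes shifted together. Uncalled named genes that changed sign with a library left out were Csa03g028750 (-0.92 to 0.25), Csa03g031680 (-0.012 to 0.78), Csa07g059670 (-0.57 to 0.12), Csa14g036010 (-0.30 to 0.34, and 0.11 with array weights), Csa15g017890 (-0.053 to 0.10), Csa16g040570 (-0.015 to 0.35) and Csa17g039230 (-0.19 to 0.51), and the cause was not tested. Deviations of same-numbered control and salt-treated libraries correlated at -0.204, 0.281 and 0.391, and those of unlike-numbered libraries at -0.459 to 0.353. Deviations from a mean of 3 libraries sum to 0, so these values cannot settle whether the numbers pair the samples. The labels do not say whether equal numbers mark a shared batch, and the reported fit has no replicate block. With the replicate block 3464 genes were up-regulated and 3342 down-regulated, 6 named genes lost the call and 1 gained it. Rounding to 1 CPM limits genes of low level most.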
